A study of Mus musculus with 8 samples.

Results

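Caveolae and transcytosis were described by 7 genes, Cav1, Cav2, Ehd2, Ehd4, Pacsin2, Plvap and Mfsd2a, taken by their symbols from the 33641 gene symbols listed for tumor-associated endothelial cells (TECs). All 7 were listed in every library and all 7 passed the filter on low values. The cells had been sorted by FACS as CD45-CD31+ from tumors of Lewis lung carcinoma (LLC), a mouse lung cancer cell line grown in the lung of C57Bl/6 mice and dissected at day 21 after injection. The endFoxf1+/- mice carried Pdgfb-iCreER, a tamoxifen-inducible Cre under an endothelial promoter, with 1 loxP-flanked Foxf1 allele (Foxf1 fl/+), and tamoxifen was given by oral gavage at 6 to 8 weeks of age. The control mice carried the floxed allele or the Cre alone, or were wild-type. The study describes tamoxifen-treated controls as well. Each group had 4 libraries, here called C1 to C4 for control and H1 to H4 for endFoxf1+/-. The series' design text gives 4 mice in each group, a plot of RNA-seq values in the study names a smaller number, and the labels do not say which animal each library came from, so the p-values measure the spread between these libraries.

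Caveolae are flask-shaped pits of the endothelial plasma membrane. Their coat is built from caveolins and cavins, EHD ATPases and the membrane-bending protein PACSIN2 hold the neck, and PLVAP forms the thin diaphragm that closes it. Vesicles that leave the surface carry albumin, lipoproteins and other plasma proteins across the cell, a route called transcytosis, and lung capillaries are among the vessels richest in caveolae. MFSD2A, a transporter of lysophosphatidylcholine with long-chain omega-3 fatty acids, is known in brain endothelium for keeping caveolar transcytosis low, and is also made by alveolar type 2 epithelial cells.

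The values were TPM (transcript abundance scaled to a fixed total) as computed by the authors, and since they account for transcript length, levels of different genes can be compared. Foxf1, the targeted gene, was listed at 213, 285, 296 and 331 TPM in C1 to C4 and at 177, 203, 14.04 and 105 TPM in H1 to H4. The groups did not overlap, with p = 0.0286 in the exact two-sided permutation test, the smallest value that 4 against 4 libraries allow. The log2 difference of Foxf1 was -1.68 (limma adjusted p = 0.790), and -0.83 without H3. Relative to the mean log2(TPM + 1) of 20 endothelial markers it was -0.51 (exact permutation p = 0.0571), with overlapping groups. Foxf1 shares exon sequence with the overlapping gene Gm20388, and reads of both cannot be told apart. All 20 endothelial markers were above 0 in every library, but their geometric mean in H3 was 5.45% and in H4 57.4% of the control mean, against 107% and 109% in H1 and H2. H3 had the highest summed TPM of fibroblast and pericyte markers (1318 against 60.5 to 117 in control libraries, 9 of 9 genes above 0) and of myeloid markers (8001 against 1438 to 5083, 8 of 8 above 0). The fibroblast genes Col3a1, Dcn and Lum carried the first of these sums, at 556, 533 and 183 TPM in H3. The fibroblast gene Col1a2 was below all controls there, at 2.39 TPM against 2.80 to 8.24. The pericyte gene Rgs5 was lower there, at 0.602 TPM against 10.7 to 18.9 in control, and Cspg4 (0.666 TPM) and Pdgfrb (5.95 TPM) were within the control ranges. The summed TPM of alveolar type 2 and airway markers was highest in C3 and H4, despite the CD31+ sort. It was 32522 and 26805 there, against 1617 to 10875 in the other libraries. Sftpc carried these sums, at 26986 TPM in C3 and 19867 TPM in H4. Krt18 of the same list was highest in H3, at 180 TPM against 46.5 in C3 and 40.4 in H4. Results are therefore given with and without H3, and the part of these other cells in them was not tested. In sorted cells measured in bulk, fewer endothelial cells in a library and less RNA per cell cannot be told apart.

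Of the 7 genes, 6 had a lower mean in endFoxf1+/- TECs and Mfsd2a had a higher one, but no difference passed a test. Of the 14964 genes tested with limma on log2(TPM + 1), 0 (0%) passed an adjusted p of 0.05 and 836 (5.59%) an unadjusted p of 0.05. The 7 genes gave 0 on both counts. Their groups overlapped in 7 of 7, where 2.31% of all genes were lower and 2.73% higher without overlap. The median log2 difference of the 7 was -0.78, against -0.17 over all genes, of which 68.0% were lower. Without H3 it was -0.23 with 4 of 7 lower, against 0.01 over all genes, of which 48.3% were lower. Under quantile or median-ratio scaling, which moved the median of all genes to -0.01, the mean of Pacsin2 was higher in endFoxf1+/- and the other directions held. A p over the threshold does not show that the groups were alike, since the standard errors were 0.28 to 0.81 on the log2 scale.

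**Figure D1:**
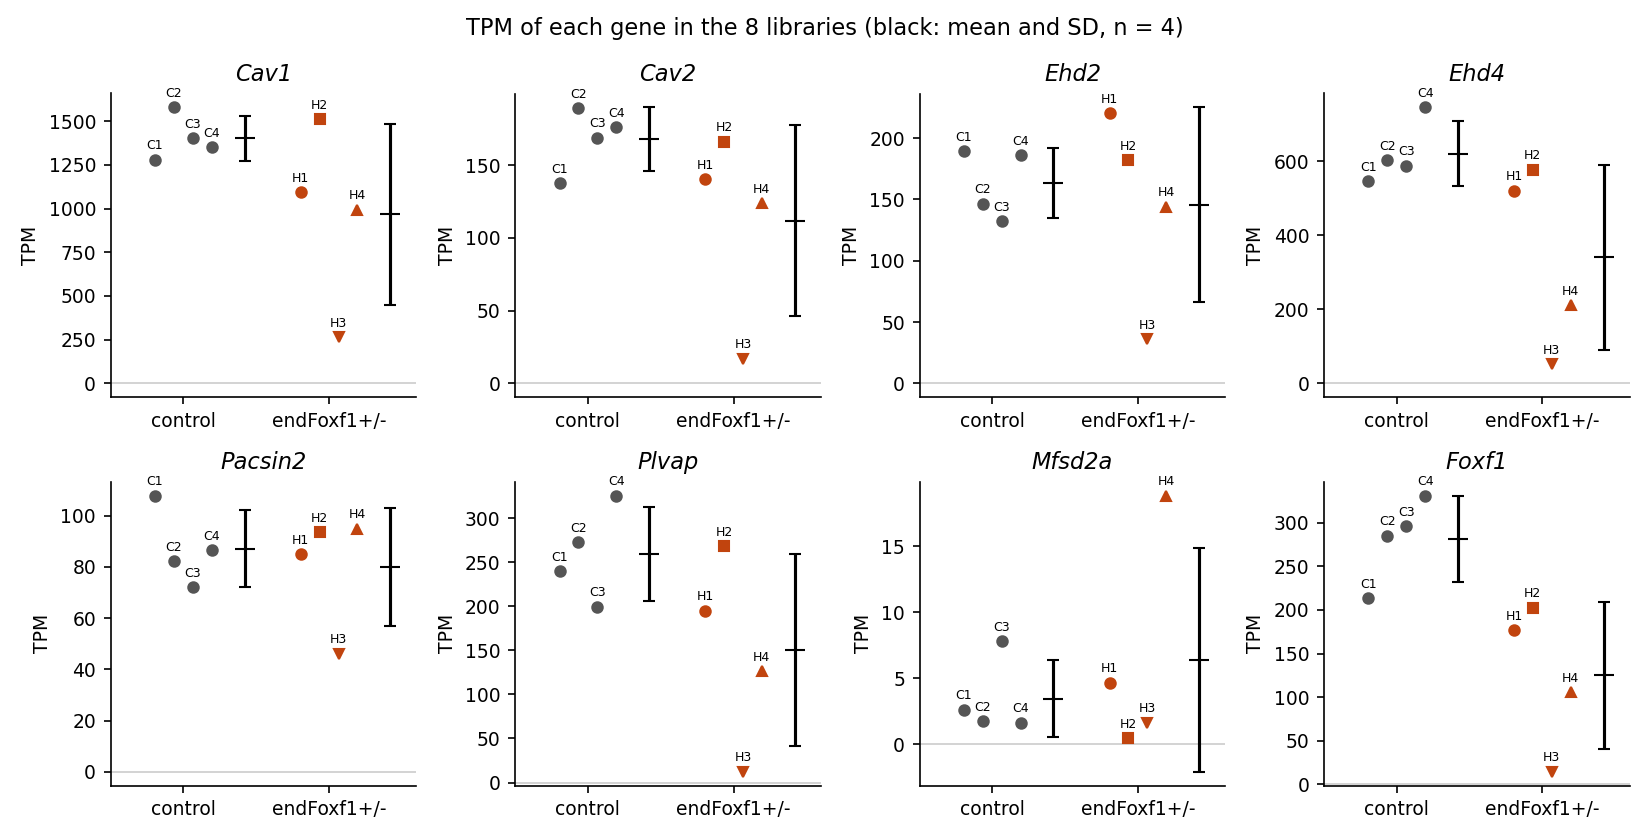
TPM (linear axes, each with its own range) of the 7 genes and of Foxf1 in 4 control (grey) and 4 endFoxf1+/- (red) libraries, with the mean and SD of each group in black. H3 (triangle pointing down) was the lowest library for Cav1, Cav2, Ehd2, Ehd4, Pacsin2, Plvap and Foxf1, and Mfsd2a was highest in H4.

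Cav1 and Cav2, the coat proteins, lie side by side on chromosome 6 (GRCm38, GENCODE vM21), Cav2 at chr6:17281185-17289115 and Cav1 at chr6:17306335-17341452, both on the plus strand with 17219 bases between them. Caveolin-1 is required for endothelial caveolae to form, and caveolin-2 assembles with it. The 250 bases before their first annotated starts (RefSeq, GRCm38.p6) are shown because the pair kept nearly the same ratio in 7 of the 8 libraries. Capitals mark matches to 5 short motifs searched on both strands, the forkhead core TGTTTAC, the ETS core GGAAGT, the GC box GGGCGG, the CCAAT box and the TATA box TATAAA.
Cav1 chr6:17306085-17306334 plus strand: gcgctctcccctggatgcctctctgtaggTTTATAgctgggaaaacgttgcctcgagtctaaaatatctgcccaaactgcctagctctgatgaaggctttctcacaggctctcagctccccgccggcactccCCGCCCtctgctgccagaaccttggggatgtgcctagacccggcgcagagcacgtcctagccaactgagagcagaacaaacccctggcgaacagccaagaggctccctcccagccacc
Cav2 chr6:17280935-17281184 plus strand: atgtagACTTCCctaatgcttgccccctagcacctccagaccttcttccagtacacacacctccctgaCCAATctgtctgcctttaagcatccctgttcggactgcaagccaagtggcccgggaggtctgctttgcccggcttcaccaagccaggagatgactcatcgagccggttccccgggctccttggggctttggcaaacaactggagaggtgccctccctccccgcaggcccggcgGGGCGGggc
The Cav1 window held a TATA box and a GC box, both on the minus strand, 221 and 118 bases before the start. The Cav2 window held an ETS core on the minus strand, a CCAAT box and a GC box, 244, 182 and 9 bases before the start. No match overlapped another in these windows. Over 32851 promoter windows of the same length, the GC box was found in 32.7%, the CCAAT box in 33.8%, the ETS core in 19.7%, the TATA box in 12.4% and the forkhead core in 3.17%. None of the 9 windows of 6 of the genes held the forkhead core letters, which says only that these letters are not in these windows.

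Cav1 was the most abundant of the 7 genes in all 8 libraries. It was listed at 1279, 1579, 1403 and 1351 TPM in the control libraries and at 1095, 1511, 264 and 994 TPM in H1 to H4. H2 lay within the control range, whereas H1, H3 and H4 lay below all controls. The mean was 1403 ± 128 TPM in control and 966 ± 519 TPM in endFoxf1+/- (SD, n = 4 each). The log2 difference was -0.78 (SE 0.51, limma adjusted p = 0.790, exact permutation p = 0.1143), and it was -0.24 without H3.

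Cav2 was listed at 137, 189, 169 and 176 TPM in control and at 140.3, 166, 17.0 and 124 TPM in endFoxf1+/- libraries. Only H3 and H4 were below all controls, and H3 stood far from the other 3. The means were 168 ± 21.9 and 112 ± 65.6 TPM (SD, n = 4 each). It differed by -0.98 on the log2 scale (SE 0.63, limma adjusted p = 0.790, exact permutation p = 0.1143), and -0.23 without H3. The ratio of Cav1 to Cav2 was 7.67 to 9.31 in control, 7.81, 9.10 and 8.04 in H1, H2 and H4, and 15.6 in H3. Exons of both genes overlap the antisense gene Gm15581, which is not analysed here, and without strand its reads cannot be told apart from theirs. Cav1 kept more of its control level in H3 than Cav2 did, 18.9% against 10.1%.

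The neck genes Ehd2, Ehd4 and Pacsin2 differed among themselves. Ehd2 (chr7:15946958-15967567, minus strand) encodes an ATPase that holds caveolae at the cell surface. It was listed at 189, 146, 132 and 186 TPM in control and at 220.4, 182, 35.9 and 144 TPM in endFoxf1+/-. H1 was the highest and H3 the lowest of all 8, so the endFoxf1+/- libraries lay on both sides of the control range. The means were 164 ± 28.5 and 146 ± 79.5 TPM (SD, n = 4 each). On the log2 scale it differed by -0.42 (SE 0.51, limma adjusted p = 0.827, exact permutation p = 0.7429), and it turned to 0.15 without H3.

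Ehd4 (chr2:120089175-120154606, minus strand) encodes a related ATPase that acts in endosomal recycling and is found at caveolae. It was listed at 545, 603, 588 and 745 TPM in control and at 521, 577, 52.4 and 211 TPM in endFoxf1+/-, second to Cav1 in every library. H1, H3 and H4 were below all controls, and H2 was within their range. The means were 620.5 ± 86.9 and 340.4 ± 250.5 TPM (SD, n = 4 each). The log2 difference was -1.35 (SE 0.67, limma adjusted p = 0.790, exact permutation p = 0.0571). Without H3 it was -0.63 (exact permutation p = 0.1143, where the smallest possible is 0.0571), and without H3 and H4 it was -0.17. The ratio of Ehd2 to Ehd4 was 0.225 to 0.347 in control libraries and 0.423, 0.315, 0.684 and 0.682 in H1 to H4. H2 overlapped the controls, and the other 3 endFoxf1+/- libraries lay above them, H4 as far as H3.

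Pacsin2 (chr15:83375607-83464606, minus strand) encodes an F-BAR protein that curves the membrane of the neck. It was listed at 108, 82.3, 72.0 and 86.6 TPM in control and at 84.9, 93.5, 46.1 and 94.9 TPM in endFoxf1+/-. H1, H2 and H4 were all within the control range and H3 was below it. The means were 87.2 ± 15.01 and 79.9 ± 23.0 TPM (SD, n = 4 each). The log2 difference was -0.17 (SE 0.28, limma adjusted p = 0.868, exact permutation p = 0.7143), close to the -0.17 median of all genes, and 0.08 without H3. Its exons overlap the processed pseudogene Gm5417 on the same strand, which was listed at 10.4 TPM in H4 and at 0 in the other 7 libraries. Reads of both cannot be told apart, and the Pacsin2 value of H4 is uncertain for that reason.

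Plvap (chr8:71497765-71511752, minus strand) encodes the diaphragm protein of caveolae and fenestrae and is a marker of leaky and tumor vessels. It was listed at 239.6, 273, 199.7 and 325 TPM in control and at 195, 268, 12.1 and 127 TPM in endFoxf1+/-. H2 was within the control range, H1 just under it, and H4 and H3 farther below. The means were 259 ± 53.2 and 150.5 ± 109 TPM (SD, n = 4 each). This gave a log2 difference of -1.40 (SE 0.81, limma adjusted p = 0.790, exact permutation p = 0.1143), and -0.44 without H3. Plvap exons overlap Gtpbp3 on the opposite strand. The library kit does not mark strand, so reads of the overlap cannot be told apart. Gtpbp3 was listed at 6.31 to 17.2 TPM, and at 13.3 TPM in H3, as high as Plvap there, so the Plvap value of H3 and what rests on it are uncertain. No promoter window was given for Plvap.

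Mfsd2a (chr4:122946850-122961188, minus strand), the transporter that restrains caveolar transcytosis in the brain, was the least abundant of the 7 in every library. The 250 bases before its start are printed because its pattern over libraries differed from that of the caveolar genes. They held 1 match 54 bases before the start, in capitals, a CCAAT box on the strand opposite to the one printed.
Mfsd2a chr4:122961189-122961438 minus strand: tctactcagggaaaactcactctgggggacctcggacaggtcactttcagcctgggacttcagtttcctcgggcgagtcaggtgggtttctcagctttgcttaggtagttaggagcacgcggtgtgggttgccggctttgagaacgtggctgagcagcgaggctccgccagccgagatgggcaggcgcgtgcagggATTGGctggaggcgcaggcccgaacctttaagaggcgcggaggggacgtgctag
Mfsd2a was listed at 2.63, 1.77, 7.79 and 1.64 TPM in control and at 4.67, 0.442, 1.62 and 18.8 TPM in endFoxf1+/-. The highest library of all was H4 and the lowest H2, both endFoxf1+/-, and the groups overlapped widely. The means were 3.46 ± 2.92 and 6.39 ± 8.48 TPM (SD, n = 4 each). Its log2 difference was 0.22 (SE 0.76, limma adjusted p = 0.941, exact permutation p = 0.8857). It was 0.48 without H3, -0.49 without H4 and -0.45 without both.

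The order of libraries by Mfsd2a was near that by the summed alveolar type 2 and airway markers, a sum carried by Sftpc. It differed from that by the summed alveolar type 1 markers, in which H1 (237 TPM) was below all controls (322 to 517 TPM). The 3 libraries highest in Mfsd2a, H4, C3 and H1, were also the 3 highest in the summed TPM of 8 alveolar type 2 and airway markers, at 26805, 32522 and 10875. Of the 8, Scgb1a1, Krt8 and Krt18 did not have these 3 libraries highest, and Krt18 was highest in H3, at 180 TPM. H2 and H3, lowest in the alveolar type 2 and airway sum at 2574 and 1617, were also the lowest in Mfsd2a. However, H3 (1.62 TPM) was barely below C4 (1.64 TPM), whose sum was 8976. H3 had more Mfsd2a than H2 (0.442 TPM) with a lower sum, and H4 (18.8 TPM) more than C3 (7.79 TPM) with a lower sum. Of the 14963 other genes tested, the 3 whose log2(TPM + 1) profile over the 8 libraries was most like that of Mfsd2a were Il33, Cdh1 and Fasn, with root mean square differences of 0.16, 0.27 and 0.33. In mouse lung, interleukin-33 is made largely by alveolar type 2 cells, Cdh1 encodes the epithelial cadherin and Fasn the fatty acid synthase. Il33 was listed at 16.3 to 63.8 TPM in control and at 45.5, 9.69, 20.9 and 137 TPM in H1 to H4. Without H3 the 3 nearest were Il33, Grb7 and Mme. The part of epithelial RNA in the Mfsd2a values was not tested.

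**Figure D2:**
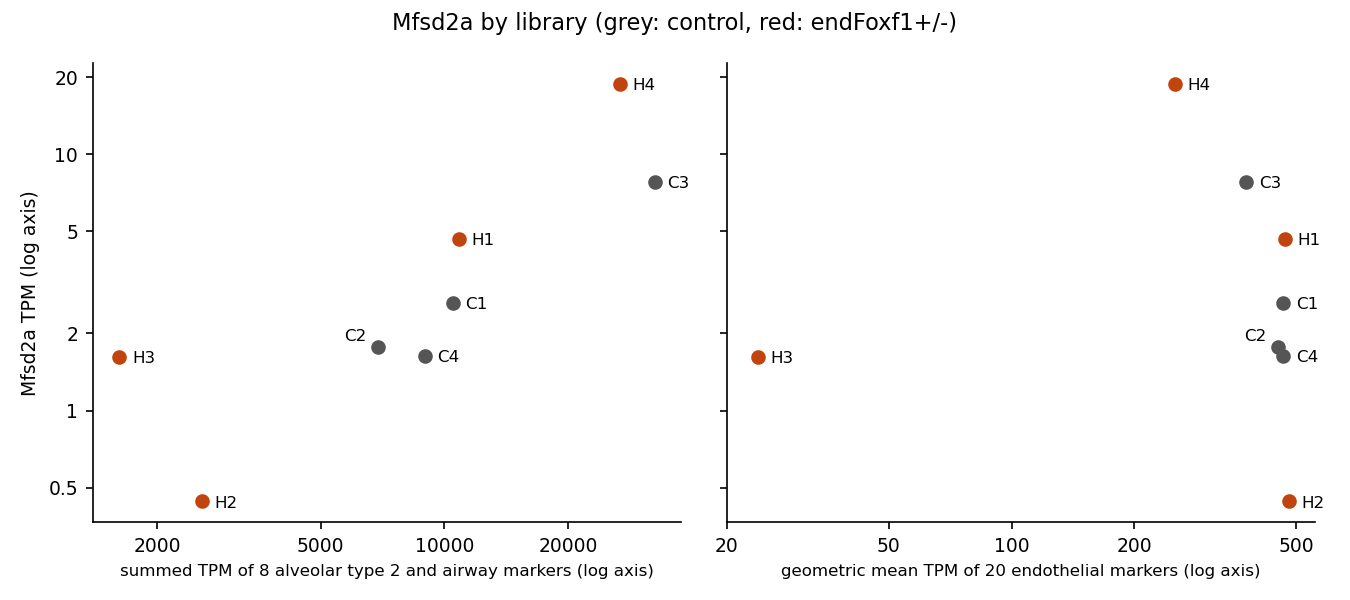
Mfsd2a TPM (log axis) of each library against the summed TPM of 8 alveolar type 2 and airway markers (left, log axis) and against the geometric mean TPM of 20 endothelial markers (right, log axis), control in grey and endFoxf1+/- in red. H4, C3 and H1 were highest on the left in both measures, while on the right H1 and H2 had nearly the same endothelial level at 4.67 and 0.442 TPM of Mfsd2a.

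The order of the levels was nearly fixed. In all 8 libraries Cav1 was first, Ehd4 second and Mfsd2a last. In the control libraries Ehd4 (545 to 745 TPM) lay above Plvap (199.7 to 325 TPM), and Plvap above Ehd2 (132 to 189 TPM) and Cav2 (137 to 189 TPM). Ehd2 and Cav2 changed places between libraries and did not differ beyond their spread, and Pacsin2 (72.0 to 108 TPM) was below both. Plvap came next after Ehd4 in all 4 controls and H2, and was behind Ehd2 in H1 and H4. In H3 it was behind Pacsin2, Ehd2 and Cav2 as well.

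In H3 the 7 genes kept different shares of their control means. Plvap kept 4.68%, within the 3.69 to 8.20% of the 20 endothelial markers. Ehd4 kept 8.45%, Cav2 10.1%, Cav1 18.9%, Ehd2 21.9%, Mfsd2a 47.0% and Pacsin2 52.9%, all above every one of the 20 markers. The same was true of 93.1% of all tested genes, whose median was 54.3%. In H4 Ehd4 kept 34.1% and Plvap 48.8% of the control mean, Cav1 70.8%, Cav2 73.7%, Ehd2 88.2% and Pacsin2 109%, all within the 19.0 to 119.7% spanned by the markers, whereas Mfsd2a was at 545%. Of all tested genes, 25.0% also lay above every marker in H4. In H1 and H2 the 6 genes other than Mfsd2a were at 75.3 to 135% of their control means. In H1 Plvap (75.3%) and Cav1 (78.1%) lay below all 20 markers, whose median was 106% and whose lowest was Cldn5 at 79.1%. In H2 Mfsd2a (12.8%) lay below all 20. The share of all genes below every marker was not computed, so this position is not read as particular to these genes.

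**Figure D3:**
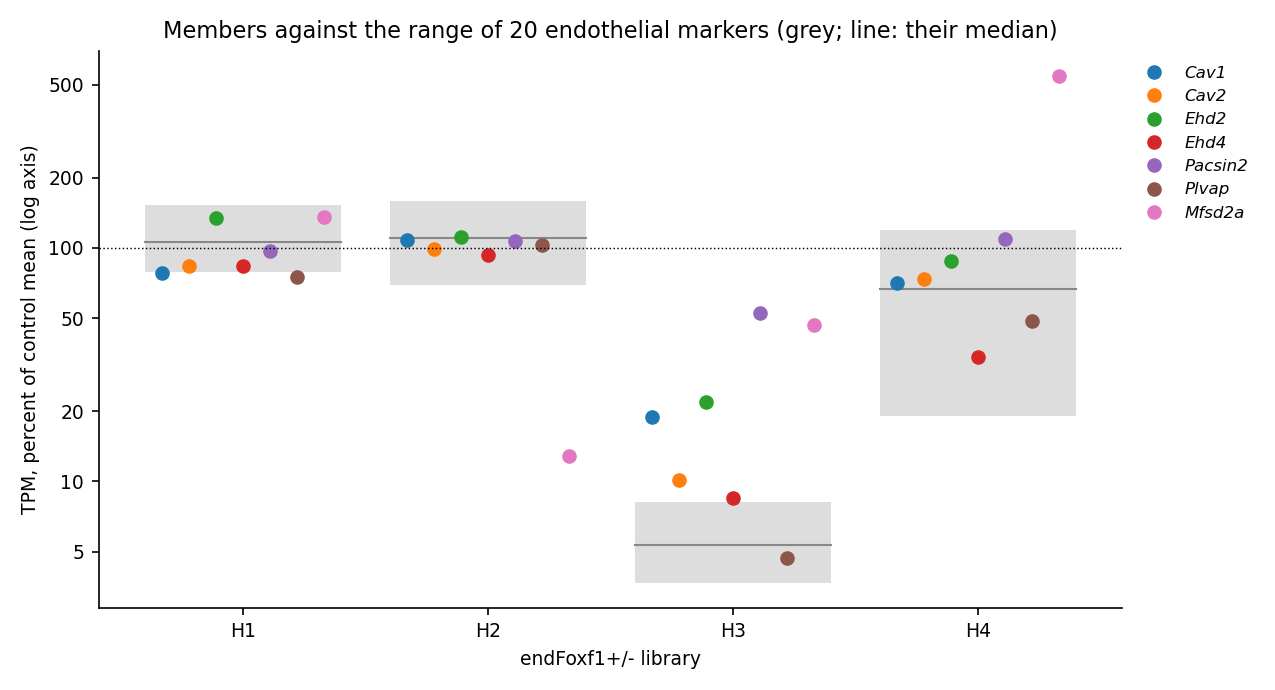
TPM of the 7 genes in each endFoxf1+/- library as a percentage of the control mean (log axis, dotted line at 100%), with the range of 20 endothelial markers as a grey band and their median as a line. In H3 only Plvap, at 4.68%, lay within the band, and in H4 Mfsd2a stood above it at 545%.

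Relative to endothelial transcripts, taken as log2(TPM + 1) minus the mean log2(TPM + 1) of the 20 markers in the same library, 5 of the 7 genes were higher in endFoxf1+/- and 2, Ehd4 and Plvap, were lower. The marker mean itself differed by -1.16 between groups (exact permutation p = 0.4286) and by -0.19 without H3. The 7 genes gave 0 calls at an adjusted p (0.00668% of all genes) and 0 at an unadjusted p under 0.05 (2.02%) in limma. No group separated from the other, where 0.0468% of all genes were lower and 8.15% higher without overlap. The median relative difference of the 7 was 0.38, against 0.995 over all genes, of which 2.92% were lower. Without H3 the values were -0.04 and 0.20, with 4 of the 7 lower against 27.2% of all genes.

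The relative values of Plvap were -0.95, -0.72, -0.92 and -0.52 in C1 to C4 and -1.26, -0.84, -0.96 and -0.99 in H1 to H4. All 4 endFoxf1+/- libraries were below the control mean and 3 of 4 below every control. The relative difference was -0.24 (exact permutation p = 0.1429), -0.25 without H3 and -0.27 without H3 and H4. It was nearest to 0 without C4, at -0.149, and without H1, at -0.154.

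Ehd4 stood at 0.23, 0.42, 0.64 and 0.68 in control and at 0.15, 0.27, 1.06 and -0.26 in endFoxf1+/- on the relative scale. H3 was the highest and H4 the lowest of all libraries. The difference was -0.19 (exact permutation p = 0.5714), -0.44 without H3 (exact permutation p = 0.1143) and -0.000131 without H4 (exact permutation p = 0.9714). Ehd2 stood at -1.29, -1.61, -1.51 and -1.32 in control and at -1.09, -1.39, 0.52 and -0.80 in endFoxf1+/-. H1, H3 and H4 were above all controls and H2 was within their range. The difference was 0.74 (exact permutation p = 0.0857), 0.34 without H3 and 0.19 without H3 and H4.

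Cav1 and Cav2 differed by 0.38 and 0.19 on the relative scale (exact permutation p = 0.6286 and 0.5429). Both values rested on H3, without which they were -0.06 and -0.04. Pacsin2 differed by 0.9998 (exact permutation p = 0.2857), near the 0.995 median of all genes, and by 0.26 without H3. In H3 alone Pacsin2 was 9.24-fold over the control mean relative to the markers. All tested genes had a median of 54.3% of the control mean in H3, against 5.32% for the 20 markers. Mfsd2a differed by 1.38 (exact permutation p = 0.3143), with H3 11.5-fold over the control mean, and by 0.67 without H3 and -0.57 without H3 and H4.

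**Figure D4:**
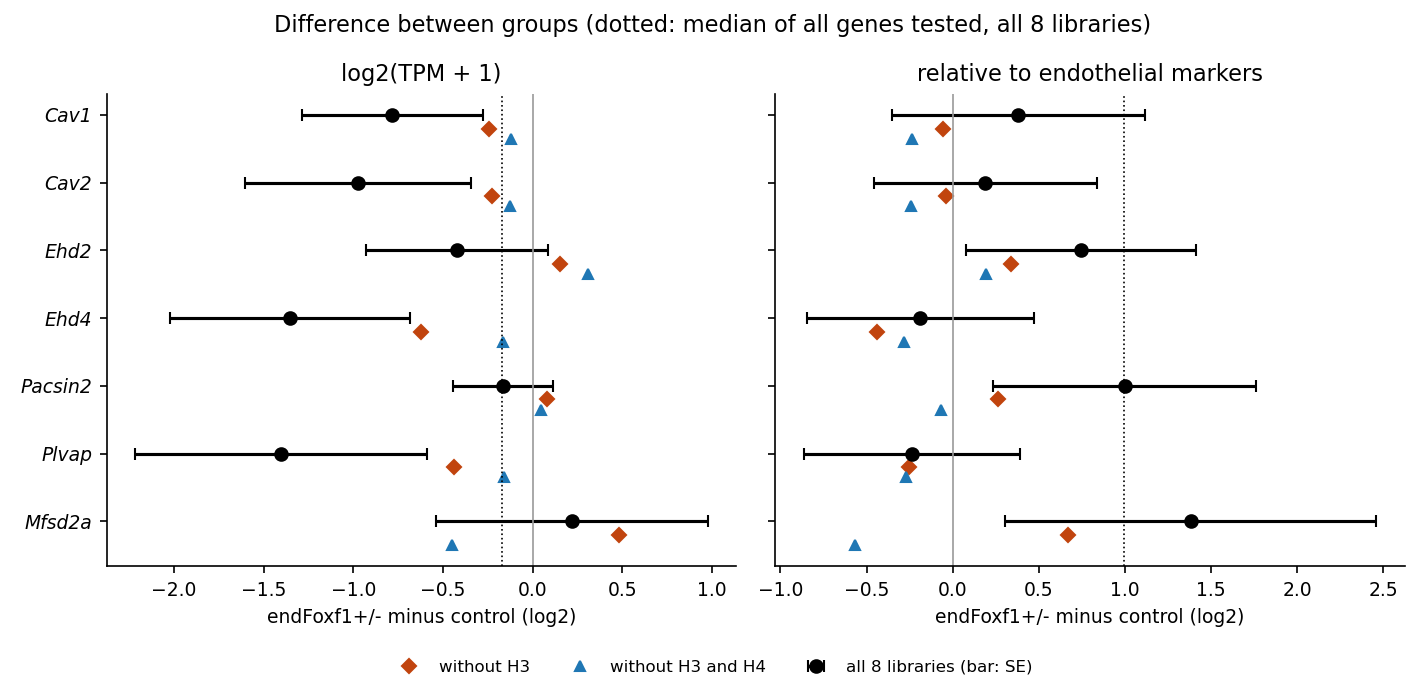
Difference between endFoxf1+/- and control TECs (log2) for the 7 genes as log2(TPM + 1) (left) and relative to the mean of 20 endothelial markers (right), from all 8 libraries (black, bar = SE) and without H3 (red) or without H3 and H4 (blue), with the median of all genes as a dotted line. Cav1, Cav2, Ehd4 and Plvap were lower on the left in each set, Ehd2 and Pacsin2 changed side without H3, and Mfsd2a changed side without H3 and H4.

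Likeness of pattern was measured as the root mean square difference between log2(TPM + 1) profiles, each centred on its mean over the libraries. With H3 left out, Cav1 and Cav2 differed by 0.10, and Cav2 ranked 17 among 14963 genes by closeness to Cav1. With all 8 libraries the same difference was 0.29 and its rank 401. The genes nearest to Cav1 over 8 libraries were Fcho2, a clathrin-pit nucleator, Pacs1 and Alpk2, at 0.12 to 0.13. Mpped2 and Phactr2 were among the 3 nearest to Cav2, at 0.07 and 0.12. Ehd4 was most like Tdrp and Sdpr, at 0.11 each, then Zfp641 at 0.14. Sdpr is the older symbol of Cavin2, a cavin of the caveolar coat. Plvap was most like Fmo1, the endothelial adhesion molecule Icam2 and Sema6a, at 0.16 to 0.17. Ehd2 was nearest to Cr1l, Macf1 and Zeb1, at 0.09 to 0.11, and Pacsin2 to Zfp617, Trp53rkb and Afap1, at 0.06 to 0.08. These neighbours changed with 1 library. Without H3 the 3 nearest to Plvap were H3f3a-ps2, Rpl31-ps8 and 0610009O20Rik, and those nearest to Ehd4 were Tdrp, Cwc27 and Cst3, without Sdpr.

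Other genes of the coat and neck were read from a list of 12, of which 10 were tested, 7 lower and 3 higher in endFoxf1+/-, 0 with an adjusted p under 0.05 in limma. Their median difference was -0.61, and -0.18 without H3. Cavin2 was listed at 494, 564, 511.4 and 638 TPM in control and at 530, 448, 42.6 and 187 TPM in endFoxf1+/-. It overlapped the control range in H1 only, and its log2 difference was -1.39 (limma adjusted p = 0.790, exact permutation p = 0.0857), -0.63 without H3. Dnm1, a dynamin that cuts vesicles from the membrane, was the only gene of the list with an unadjusted p under 0.05, a call that 5.59% of all genes had. It was at 1.35 to 5.22 TPM in control and 5.98, 2.79, 36.9 and 9.35 TPM in endFoxf1+/- (log2 difference 1.65, limma adjusted p = 0.790), with 1.02 without H3, and its highest libraries H3 and H4 were also those highest in the summed fibroblast and pericyte markers, whose part in it was not tested. Cavin1 (listed as Ptrf), the cavin needed for caveolae and named here after its values were seen, was at 124 to 166 TPM in control and 119, 147, 45.7 and 84.5 TPM in endFoxf1+/-, with a log2 difference of -0.67 (limma adjusted p = 0.790), and -0.35 without H3. The muscle caveolin Cav3 was at 0 in 7 libraries, Cavin4 at 0 in H4 and Pacsin1 at 0 in H2. Per Cavin2, Cav1 stood at 2.12 to 2.80 in control and at 2.07, 3.37, 6.20 and 5.32 in H1 to H4, so that H2, H3 and H4 exceeded all controls and H1 was below them. Per Cavin1 and Cavin3 it went the other way in H3, at 5.78 against 7.72 to 11.3 in control and at 8.93 against 27.6 to 59.9. In H4 Cav1 stood at 11.8 per Cavin1, above all controls, and at 20.1 per Cavin3, below them.

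Among 6 residents and kinases of caveolae, 5 were lower and 1 higher, with 0 adjusted and 0 unadjusted calls. Without H3, 3 of the 6 were lower and the median turned from -0.26 to 0.04. Flot1, a raft scaffold, differed by -0.33 and Nos3, the endothelial nitric oxide synthase held by caveolin-1, by -0.67 (limma adjusted p = 0.797 and 0.809). Without H3 these were -0.13 and 0.09, and Nos3 was above all controls in H1 and H2. The 9 genes of the clathrin coat, the other main entry route, gave 6 lower and 3 higher and 0 calls, with a median of -0.16, and -0.02 without H3. The smallest p in that list was for Cltb, a light chain, at -0.83 (limma adjusted p = 0.790) and -0.26 without H3, and the next for Ap2s1 at -0.51 (limma adjusted p = 0.800) and -0.69 without H3. Of the 10 docking and fusion genes 9 were lower and 1 higher, again with 0 calls and a median of -0.13, near the -0.17 of all genes. Without H3, 4 of the 10 were lower and the median was 0.0150. The vesicle SNAREs Vamp2 and Vamp8 differed by -0.76 and -0.40 (limma adjusted p = 0.790 each), and by -0.41 and -0.29 without H3.

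Of 12 transcytosis receptors and carriers 11 were tested, with 6 lower, 5 higher and 0 adjusted calls. The median was -0.19, and 0.15 without H3. Lrp1, an endocytic receptor of many ligands, was listed at 5.02, 3.46, 4.17 and 3.12 TPM in control and at 9.11, 8.40, 61.7 and 37.1 TPM in endFoxf1+/-. Every endFoxf1+/- library was above every control, as for 2.73% of all genes. The log2 difference was 2.16 (SE 0.59, unadjusted p = 0.00497 and adjusted p = 0.790 in limma, exact permutation p = 0.0286), and 1.65 without H3. In endFoxf1+/- libraries Lrp1 had the same order, H3 over H4, H1 and H2, as the summed fibroblast and pericyte markers and the summed myeloid markers (8001, 4643, 2520 and 1758 TPM). Of the first list, Col3a1, Dcn, Lum and Pdgfra had this order, whereas Col1a1 was highest in H4 and Col1a2 and Rgs5 were lowest in H3. All 8 myeloid markers were highest in H3, but only Lyz2, which carried their sum at 6870, 4476, 2408 and 1582 TPM, had the whole order. These orders cover the endFoxf1+/- libraries only. In control, C3 had a myeloid sum of 5083 TPM, above that of H4, with Lrp1 at 4.17 TPM. The part of fibroblasts, pericytes or myeloid cells in Lrp1 was not tested. Lrp8 differed by 0.59 (limma adjusted p = 0.790), and by 0.32 without H3.

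Of 9 barrier genes found with Mfsd2a in brain endothelium 8 were tested, 6 lower and 2 higher, with 0 adjusted calls and 2 unadjusted calls, where 5.59% of all genes had one. The median was -0.48, and -0.04 without H3. Slc2a1, the glucose transporter GLUT1, was at 20.5, 23.3, 18.4 and 17.7 TPM in control and at 26.4, 23.8, 122 and 53.4 TPM in endFoxf1+/-. The groups did not overlap, as for 2.73% of all genes in this direction, though H2 exceeded C2 by little. This was a log2 difference of 1.15 (SE 0.47, unadjusted p = 0.0351 and adjusted p = 0.790 in limma, exact permutation p = 0.0286), and 0.68 without H3. Slc2a1 had the same order of endFoxf1+/- libraries as both of those sums, and so as Col3a1, Dcn, Lum, Pdgfra and Lyz2 but not as the other markers of these lists. C3, above H4 in the myeloid sum, had Slc2a1 at 18.4 TPM. Slc7a5, a large neutral amino acid transporter, differed by 1.02 (unadjusted p = 0.0411 and adjusted p = 0.790 in limma) and by 0.73 without H3, with overlapping groups. Slco1a4 was at 0 in H2 and H4.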

How the data were processed

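RNA-seq was analysed for 4 control and 4 endFoxf1+/- libraries of sorted TECs. The authors prepared libraries with Nextera XT and deposited 1 table per library of TPM per gene symbol. According to the submitters' processing notes, the authors used TopHat, Cufflinks, Subread and DESeq2 and the builds GRCm38 and mm10, without role or order. TPM of each library sum to 1000000 and keep no read depth, so the depth is unknown and no counting interval is given.

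Group came from the genotype label. The 7 genes and all gene lists were chosen with earlier results of these data known. Because TPM are not counts, log2(TPM + 1) was fitted with limma 3.58.1 (R 4.3.3, intensity trend) over the 14964 genes that reached 1 TPM in 4 or more libraries, with Benjamini-Hochberg adjustment at 0.05. Fold changes on this scale understate changes of low genes. Single values were tested by exact two-sided permutation over 70 assignments (scipy 1.17.1). Coordinates came from GENCODE vM21, in which 95.6% of symbols were found, and promoters from RefSeq (6 of 7 genes). No 2 of the 28 library pairs were identical. The statistics were tested on simulated data. Besides the 7 genes, those named were list genes whose groups did not overlap, the 2 with the smallest unadjusted p in each list, genes at 0, and the 3 genes most like each of the 7, of which 1 is not reported here. Alternatives were other pseudocounts, filters, scalings, references and weights, and leaving out libraries.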

Additional observations from a re-analysis of the deposited data

Results flagged for a closer look

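In 2 of the 28 sets of 4 libraries examined (each of the 7 genes in each group and on each scale), 1 library stood apart beyond Dixon's critical value, and chance alone gives this in about 1 set of 20. Both were log2(TPM + 1) values of H3 in the endFoxf1+/- group. For Cav2, H3 lay below the next library by a gap of 0.869 of the group's range, and for Pacsin2 by 0.845. H3 was also the library with the lowest endothelial marker level, 5.45% of the control mean, and the part of that level in these values was not tested.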

How the results depend on the processing

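The differences of Cav1, Cav2, Ehd4 and Plvap kept their sign on the log2(TPM + 1) scale in all 17 alternatives run for each, as did Ehd2, Ehd4 and Plvap relative to the endothelial markers. Their sizes did not hold. Without H3 and H4 the log2(TPM + 1) difference was -0.12 for Cav1, -0.13 for Cav2, -0.17 for Ehd4 and -0.16 for Plvap. Relative to the markers, Ehd4 ranged from -0.44 to -0.000131 on leaving out 1 library, the last without H4. Plvap ranged from -0.30 to -0.15 on that scale. No gene of the 7 had a limma adjusted p under 0.05 on log2(TPM + 1) or an exact permutation p under 0.05 relative to the markers in these. With 1 or 2 libraries left out, the smallest possible exact permutation p was 0.0571 or 0.1333, so no gene could pass that test there. Before adjustment, limma put Ehd4 under 0.05 with median-ratio scaling (-1.16, adjusted p = 0.674), without H1 (-1.72, adjusted p = 0.521) and without H2 (-1.77, adjusted p = 0.451), and Plvap without H2 (-1.89, adjusted p = 0.451). Mfsd2a was not tested at a minimum TPM of 5. Signs turned as follows. Pacsin2 was 0.0294 with quantile normalization, 0.0306 with median-ratio scaling, 0.0435 with array weights and 0.0468 without H3 and H4, with a range of -0.27 to 0.0767 on leaving out 1 library. Ehd2 was 0.34 with array weights and 0.31 without H3 and H4, with a leave-one-out range of -0.71 to 0.15. Mfsd2a was -0.45 without H3 and H4, with a leave-one-out range of -0.49 to 0.77. Relative to the markers and without H3 and H4, Cav1 and Cav2 were both -0.24, Pacsin2 -0.0689 and Mfsd2a -0.57. On leaving out 1 library Cav1 ranged from -0.0575 to 0.66 and Cav2 from -0.0393 to 0.37 on that scale. Over all genes, adjusted calls numbered 148 with array weights, which gave H3 0.06 and H4 0.18, 2 without H3 and H4, and 0 to 1 on leaving out 1 library (1 without C1). Unadjusted calls numbered 519 at a minimum TPM of 5, 2866 with array weights, 1782 without H3 and H4 and 416 to 1589 on leaving out 1 library. Where these values moved, the cause was not tested except as far as fewer genes or libraries entered. No paired analysis was possible because the labels tie no control library to an endFoxf1+/- library, and the numbers 1 to 4 used here only name libraries in the order they were listed.

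TPM carry no read numbers, so the precision of single values is unknown, and 4 libraries a group cannot give an exact p below 0.0286.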

Other observations

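Scarb1, Abcg2 and Dnm3 are described here because their groups did not overlap relative to endothelial markers, as was also true of Lrp1. They were chosen for this after their values were seen, so no test is given on that scale, on which 8.15% of all genes were higher without overlap. Scarb1, a lipoprotein receptor that carries low-density lipoprotein across endothelium, was listed at 219.7, 202, 151 and 162 TPM in control and at 245, 257, 22.8 and 259 TPM in endFoxf1+/-. H1, H2 and H4 were above all controls and H3 was below them. Its log2 difference was -0.38 (limma adjusted p = 0.883) and 0.48 without H3. Relative to endothelial markers it differed by 0.79, and by 0.67 without H3. Abcg2, an efflux pump of barrier endothelium, was listed at 60.8, 46.2, 38.5 and 48.2 TPM in control and at 62.0, 72.5, 8.0 and 61.8 TPM in endFoxf1+/-, again with H3 alone below the controls. Relative to the markers it differed by 0.89, and by 0.63 without H3. Dnm3, a dynamin, differed by 0.78 on the same scale, and by 0.46 without H3. With all 8 libraries the relative differences of Scarb1, Abcg2 and Dnm3 lay below the median of all genes, 0.995. Without H3 they lay above that median, which was then 0.20.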
